A study of Mus musculus with 4 samples.

Results

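The comparison described here set mature dendritic cells transfected with si-Lnc-Dpf3, an siRNA that carries the name of lnc-Dpf3, a long non-coding RNA, against cells transfected with the siRNA si-NC, neither of them given CCR7 ligands. It used 2 of the 4 RNA libraries of the series, si-Lnc-Dpf3 Med and si-NC Med, where Med stands for unstimulated cells. Expression was given as FPKM, fragments per kilobase of transcript scaled to the depth of the library, and 11041 of the 18021 genes in the table, those averaging 1 FPKM or more over the 4 libraries, were compared. All 4 libraries came from C57BL/6 mouse dendritic cells kept 5 days in RPMI1640 with GM-CSF and IL4, cytokines that turn marrow cells into dendritic cells, matured with LPS (lipopolysaccharide, 100 ng/ml, 24 h) and then transfected. The other 2 libraries, si-Lnc-Dpf3 CCR7L and si-NC CCR7L, came from transfected cells stimulated for 12 h with CCL19 and CCL21, the ligands of the chemokine receptor CCR7. The title of the series places lnc-Dpf3 in CCR7-driven migration and in glycolysis controlled by HIF1α.

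With 1 library a group there is no spread between replicates, so every ratio below is a difference between those libraries and carries no test. Log2 ratios are si-Lnc-Dpf3 over si-NC, computed on log2(FPKM + 1), a scale that understates differences of genes with low FPKM. The steps in which low FPKM values occur put the depth at about 19600000 reads for si-Lnc-Dpf3 Med and 19700000 reads for si-NC Med. At those depths 1 FPKM stands for about 55 and 56 reads of a transcript of median length, and 10 FPKM for about 553 and 555. The non-coding RNA itself was not analysed here, so its depletion by the siRNA could not be read from these values.

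Dendritic cells take up antigen, mature on contact with microbial products such as LPS, and then show peptides on MHC molecules to T cells while they secrete cytokines. Maturation raises the receptor CCR7, whose ligands guide the cells to lymph nodes. Marrow cultures with GM-CSF also hold neutrophils, macrophages and their dividing precursors, so a bulk library from them averages over several cell types.

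The libraries carried the RNA of mature dendritic cells. Ccl22, a chemokine gene of mature dendritic cells, stood at 3040 FPKM in si-Lnc-Dpf3 Med and 3746 FPKM in si-NC Med. Cd74, the MHC class II invariant chain, was at 1516 FPKM with si-Lnc-Dpf3 and 1856 FPKM with si-NC, and Fscn1, an actin-bundling protein of dendritic cells, at 596 FPKM with si-Lnc-Dpf3 and 665 FPKM with si-NC. Cd209a, Clec9a and Xcr1, which mark subsets of dendritic cells, were below 1 FPKM in both. RNA of some neutrophil genes was abundant as well: S100a9, a subunit of calprotectin, stood at 5721 FPKM with si-Lnc-Dpf3 and 3670 FPKM with si-NC. Others were scarce: the surface antigen gene Ly6g stood at 3.85 FPKM with si-Lnc-Dpf3 and 3.98 FPKM with si-NC. Retnlg and Mrgpra2a were below 1 FPKM in both. Defining markers of some other lineages were scarce. Cd3e, Cd3d, Cd3g and Cd4 of T cells, Ms4a1 of B cells, Ncr1 of NK cells, Siglech of plasmacytoid dendritic cells and Col1a1 of stromal cells were each below 1 FPKM in both libraries. Other markers of these cells averaged 1 FPKM or more, 4 of T cells, 2 of B cells and 3 of NK cells. So did 2 of stromal cells and 3 of plasmacytoid dendritic cells. The 7 plasmacytoid markers together stood at 544 FPKM with si-Lnc-Dpf3 and 644 FPKM with si-NC. Of 10 erythroid markers 3 averaged that much, and the 10 together stood at 111 FPKM with si-Lnc-Dpf3 and 129 FPKM with si-NC. Markers of basophils, eosinophils and megakaryocytes were present. The basophil protease gene Mcpt8 stood at 184 FPKM with si-Lnc-Dpf3 and 209.5 FPKM with si-NC, Prg2, for eosinophil major basic protein, at 211 FPKM with si-Lnc-Dpf3 and 213 FPKM with si-NC, and Pf4, for platelet factor 4, at 42.2 FPKM with si-Lnc-Dpf3 and 57.3 FPKM with si-NC.

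Ratios between the unstimulated libraries were small. Their median was 0.02 on the log2 scale, the 5th and 95th percentiles were -0.30 and 0.33, and 84.4% of genes lay within 1.2-fold. At least 1.5-fold higher in si-Lnc-Dpf3 Med were 48 genes, 0.435% of the genes compared, and at least 1.5-fold lower were 65 genes, 0.589%. At least 2-fold higher were 4 genes, 0.0362%, and at least 2-fold lower were 6 genes, 0.0543%. A mean under 10 FPKM was found for 23 of the 48 and 38 of the 65. The other 25 of the 48 and 27 of the 65 averaged at least 10 FPKM, where 6440 of all 11041 genes did. Low expression was thus common among all genes compared and more frequent among those past 1.5-fold, above all the lower ones. The genes nearest to the threshold were Ms4a3 at 0.59 and Pglyrp1 at 0.58 on the higher side, and Nenf at -0.59 and Gm14288 at -0.58 on the lower side, the first of each pair inside it.

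**Figure D1:**
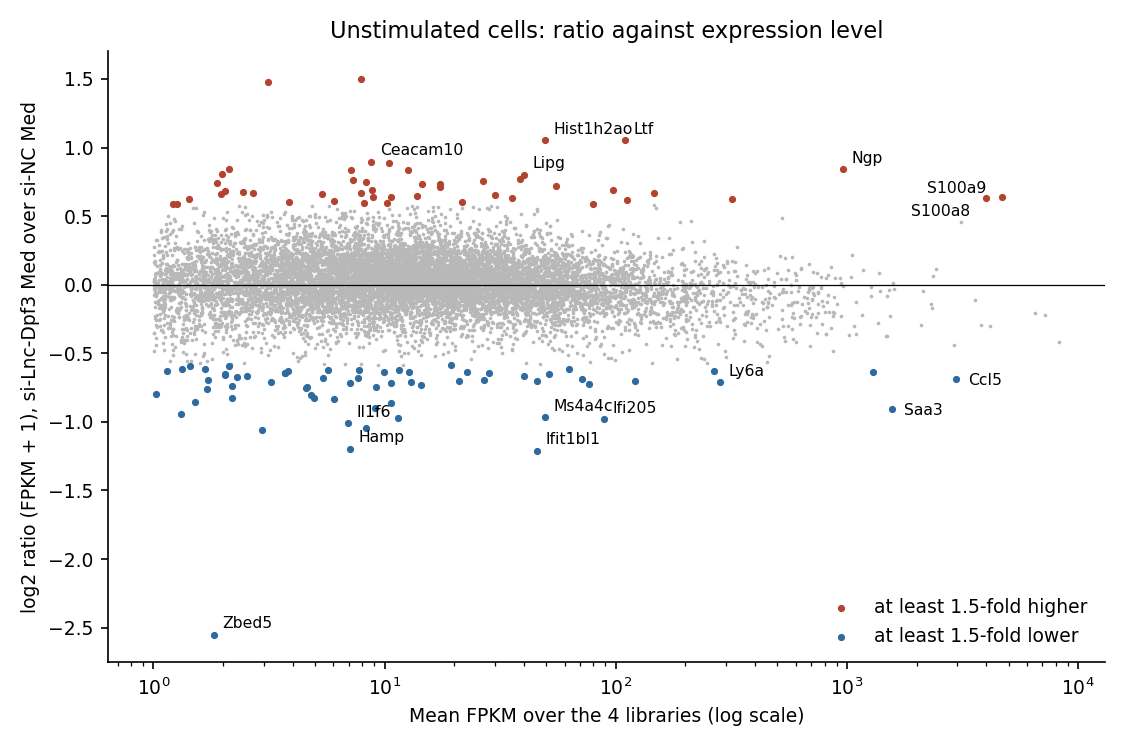
Log2 ratio of FPKM + 1, si-Lnc-Dpf3 Med over si-NC Med, against the mean FPKM of the 4 libraries on a log axis, with 1 point for each of 11041 genes. The coloured points are the 48 genes at least 1.5-fold higher and the 65 at least 1.5-fold lower, among them the abundant neutrophil genes S100a8 and S100a9 above 0 and Ccl5 and Saa3 below it.

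Of the 48 higher genes 19 were in at least 1 of 42 gene lists, and 15 of these 19 in the neutrophil lists, while 18 of the 65 lower genes were in a list. The other 76 genes past 1.5-fold were in none. Of all 11041 genes compared, 929 were in a list. The lists and their members were chosen with earlier results of these data known, so these counts are a description. Lists that stood mostly on the higher side in si-Lnc-Dpf3 Med were those of neutrophil granules and of mitosis. Mostly lower were the lists of interferon-stimulated genes, of cytokines and chemokines and of dendritic cell maturation. Promoters of some neutrophil, mitosis and interferon-stimulated genes are shown first, since each group is read against a motif for which its genes are known. They were chosen because they hold a match, and not all are past 1.5-fold. Sequences are 200 bases from RefSeq on GRCm38.p6, from 170 bases before the annotated start to 30 bases from it, 5′ to 3′ on the gene's strand. Promoters of Ifit1bl1 (chr19:34601939-34602138, minus strand), Apol9a (chr15:77411051-77411250, minus strand) and Rsad2 (chr12:26456423-26456622, minus strand) have in capitals the interferon-stimulated response element, searched on both strands as GAAA, any 2 bases and GAAA again, where the 2 matches in Apol9a overlap.
Ifit1bl1: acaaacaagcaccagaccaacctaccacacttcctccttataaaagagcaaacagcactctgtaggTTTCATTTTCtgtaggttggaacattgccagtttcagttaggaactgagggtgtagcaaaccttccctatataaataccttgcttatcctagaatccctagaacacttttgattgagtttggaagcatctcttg
Apol9a: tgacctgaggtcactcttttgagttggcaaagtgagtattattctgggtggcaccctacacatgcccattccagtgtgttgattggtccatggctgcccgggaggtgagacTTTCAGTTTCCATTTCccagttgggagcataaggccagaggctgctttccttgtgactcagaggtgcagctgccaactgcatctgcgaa
Rsad2: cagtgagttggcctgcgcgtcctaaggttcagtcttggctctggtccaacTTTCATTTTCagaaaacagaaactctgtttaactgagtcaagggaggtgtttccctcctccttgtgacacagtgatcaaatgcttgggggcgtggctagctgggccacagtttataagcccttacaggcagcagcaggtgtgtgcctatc

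Promoters of the mitosis genes Kif15 (chr9:122950911-122951110, plus strand) and Ccnb2 (chr9:70421525-70421724, minus strand) have in capitals TTTGAA, the core of the cell cycle homology region. Those of the neutrophil granule genes Ltf (chr9:111019122-111019321, plus strand) and Ngp (chr9:110419638-110419837, plus strand) have in capitals TTGCNNAA, a C/EBP motif. Both motifs were searched on both strands.
Kif15: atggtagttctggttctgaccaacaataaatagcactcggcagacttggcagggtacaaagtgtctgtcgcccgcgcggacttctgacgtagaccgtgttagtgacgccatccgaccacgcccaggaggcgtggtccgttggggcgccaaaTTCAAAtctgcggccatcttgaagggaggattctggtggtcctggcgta
Ccnb2: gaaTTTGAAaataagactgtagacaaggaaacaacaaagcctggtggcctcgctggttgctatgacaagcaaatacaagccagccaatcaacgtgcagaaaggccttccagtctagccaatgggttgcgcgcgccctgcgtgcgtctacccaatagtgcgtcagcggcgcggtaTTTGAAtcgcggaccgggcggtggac
Ltf: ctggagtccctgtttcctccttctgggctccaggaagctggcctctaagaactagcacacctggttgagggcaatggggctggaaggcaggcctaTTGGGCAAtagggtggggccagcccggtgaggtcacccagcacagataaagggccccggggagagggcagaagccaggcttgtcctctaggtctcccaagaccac
Ngp: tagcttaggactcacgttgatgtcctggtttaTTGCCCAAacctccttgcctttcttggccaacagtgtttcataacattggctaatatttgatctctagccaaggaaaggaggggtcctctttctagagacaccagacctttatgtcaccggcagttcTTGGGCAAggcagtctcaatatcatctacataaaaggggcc

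Each motif was more frequent in its own list than among the 8942 compared genes with a promoter entry, which ran from 250 bases before the start to 50 after it. A gene counted as matched where any of its promoter entries held the motif. Counts of promoters here and further below are therefore counts of genes. The interferon-stimulated response element matched in 25 of 40 antiviral interferon promoters, 62.5%, against 4.08% of all. TTTGAA matched in 30 of 42 mitosis promoters, 71.4%, against 14.6%, and the CCAAT box, searched as CCAAT, in 31 of the 42, 73.8%, against 43.4%. TTGCNNAA matched in 10 of 32 neutrophil promoters, 31.2%, against 10.2%. These shares describe the lists, whatever their ratios. The interferon-stimulated response element was in 6 of 46 promoters, 13%, of the genes at least 1.5-fold lower in si-Lnc-Dpf3 Med. It was in 0 of 37 promoters of the genes at least 1.5-fold higher. TTGCNNAA, shown above for neutrophil genes that were higher, was in 10 of the 46, 21.7%, and 6 of the 37, 16.2%. TTTGAA was in 8 of the 46, 17.4%, and 9 of the 37, 24.3%. CCAAT was in 21 of the 46, 45.7%, and 20 of the 37, 54.1%. With so few promoters none of these shares was tested. A match in letters does not show that a factor binds there.

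Neutrophil genes were the group with the highest ratios. Ltf (chromosome 9, 111019292 to 111042766), which encodes the secondary granule protein lactoferrin, stood at 155 FPKM in si-Lnc-Dpf3 Med and 74.1 FPKM in si-NC Med, and at 139 FPKM in si-Lnc-Dpf3 CCR7L and 72.00 FPKM in si-NC CCR7L. Both si-Lnc-Dpf3 libraries were thus high and both si-NC libraries low, with log2 ratios of 1.05 without the ligands and 0.94 with them. Ngp (chromosome 9, 110419808 to 110423012), for neutrophilic granule protein, stood at 1233 FPKM in si-Lnc-Dpf3 Med and 687 FPKM in si-NC Med, and at 1234 FPKM in si-Lnc-Dpf3 CCR7L and 692 FPKM in si-NC CCR7L. Its log2 ratios were 0.84 and 0.83, and the libraries of each siRNA were almost level with each other. Where a single value in brackets follows the FPKM below, it is the log2 ratio of the Med pair.

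The 3 neutrophil lists held 35 measured members. Of these, 30 were higher in si-Lnc-Dpf3 Med and 5 lower, where 54.3% of all genes were higher and 45.3% lower, and the median log2 ratio was 0.46, where that of all genes was 0.02. At least 1.5-fold higher were 15 of the 35, in lists chosen with earlier results of these data known. No other kind of list held as many of the 19 list members past that threshold. The summed FPKM of the neutrophil lists was 19276 in si-Lnc-Dpf3 Med and 13498 in si-NC Med, or 4.06% and 2.74% of the library's total. Under CCR7 ligands it was 19314 in si-Lnc-Dpf3 CCR7L and 14012 in si-NC CCR7L. Most of the sum, and of its difference in the Med pair, lay in S100a9, S100a8, Chil3 and Ngp. The sum thus says little of the other members. Retnlg and Mrgpra2a, also named in these lists, were below 1 FPKM in both Med libraries. In a bulk library more cells of a type and more RNA per cell cannot be told apart.

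Primary granule genes, made earliest in neutrophil development, were higher in 6 of 6, with a median of 0.45. Elane, the gene of neutrophil elastase, had 34.3 FPKM with si-Lnc-Dpf3 and 19.9 FPKM with si-NC (0.76). Prtn3, for proteinase 3, had 69.5 FPKM with si-Lnc-Dpf3 and 41.8 FPKM with si-NC (0.72). Ms4a3, a gene of granulocyte precursors, had 97.6 FPKM with si-Lnc-Dpf3 and 64.6 FPKM with si-NC (0.59). The spread within the list was wide, since 3 of its members were past 1.5-fold and the others closer to level. Mpo, for myeloperoxidase, had 20.96 FPKM with si-Lnc-Dpf3 and 16.7 FPKM with si-NC (0.31). Ctsg, for cathepsin G, had 58.5 FPKM with si-Lnc-Dpf3 and 57.9 FPKM with si-NC (0.01).

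Secondary and tertiary granule genes, made later in that development, were higher in 12 of 14, with a median of 0.46 and 6 members past 1.5-fold, Ltf and Ngp among them. Ceacam10, of a family of cell adhesion proteins, had 11.7 FPKM with si-Lnc-Dpf3 and 5.81 FPKM with si-NC (0.90). Lrg1, a secreted glycoprotein gene, had 16.5 FPKM with si-Lnc-Dpf3 and 8.81 FPKM with si-NC (0.83). Camp, for the antimicrobial peptide cathelicidin, had 119 FPKM with si-Lnc-Dpf3 and 73.7 FPKM with si-NC (0.69). The remaining gene past 1.5-fold was that of the neutrophil surface antigen Cd177, at 50.01 FPKM with si-Lnc-Dpf3 and 28.9 FPKM with si-NC (0.77). The members closest to level were Lcn2, Hp and Mmp9. Lcn2, for lipocalin 2, had 1589 FPKM with si-Lnc-Dpf3 and 1620.4 FPKM with si-NC (-0.03). Hp, for haptoglobin, had 374 FPKM with si-Lnc-Dpf3 and 369 FPKM with si-NC (0.02). Mmp9, for gelatinase B, had 5.23 FPKM with si-Lnc-Dpf3 and 5.57 FPKM with si-NC (-0.08).

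Surface, calprotectin and stefin genes were higher in 12 of 15, with a median of 0.33. The calprotectin subunit gene S100a8 had 4691 FPKM with si-Lnc-Dpf3 and 3020.4 FPKM with si-NC (0.64), and its partner S100a9 had the same log2 ratio of 0.64. Stfa2l1, a stefin gene whose product inhibits cysteine proteases, had 177 FPKM with si-Lnc-Dpf3 and 111 FPKM with si-NC (0.67). Its transcript shares 41.6% of its 31-base words with other genes, so that the split between stefin copies is uncertain. Receptor and surface genes of mature neutrophils were mixed. Ltb4r1, a receptor gene for leukotriene B4 counted with the secondary and tertiary granule list, had 17.1 FPKM with si-Lnc-Dpf3 and 13.7 FPKM with si-NC (0.29). Cxcr2, a chemokine receptor gene, had 8.15 FPKM with si-Lnc-Dpf3 and 7.26 FPKM with si-NC (0.15). Ly6g, the antigen by which mouse neutrophils are usually sorted, had 3.85 FPKM with si-Lnc-Dpf3 and 3.98 FPKM with si-NC (-0.04), and its ratio in the CCR7L pair was 0.48. Csf3r, the G-CSF receptor gene, had 19.1 FPKM with si-Lnc-Dpf3 and 23.8 FPKM with si-NC (-0.30). Of 13 factors of progenitors and granulocyte precursors, 8 were higher, 61.5%, and 5 lower, with a median of 0.07, so that the list was close to all genes. Cebpe, which is needed for secondary granules, had 28.8 FPKM with si-Lnc-Dpf3 and 21.7 FPKM with si-NC (0.39). Gfi1, a repressor of monocyte genes, had 4.98 FPKM with si-Lnc-Dpf3 and 3.79 FPKM with si-NC (0.32). Gata1, a factor of erythroid cells, had 2.56 FPKM with si-Lnc-Dpf3 and 3.64 FPKM with si-NC (-0.38), the lowest ratio in the list.

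**Figure D2:**
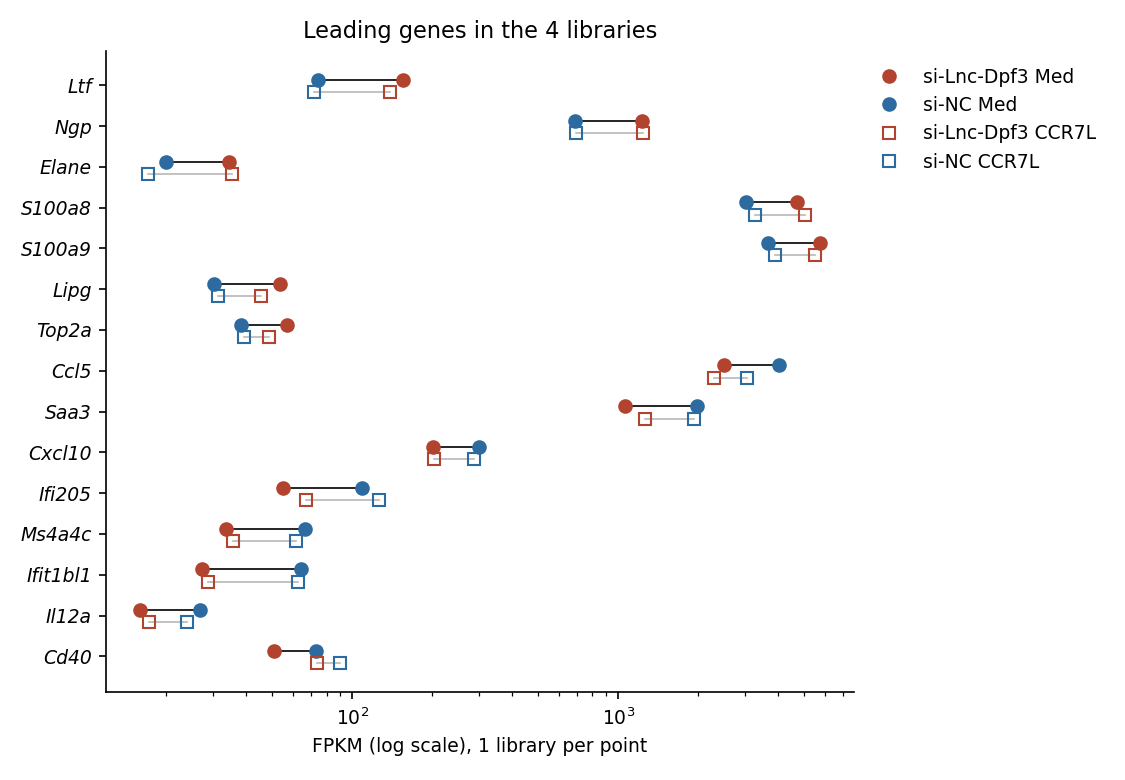
FPKM of 15 genes, 1 library per point on a log axis, with filled circles for the Med pair and open squares for the CCR7L pair, red for si-Lnc-Dpf3 and blue for si-NC. In both pairs si-Lnc-Dpf3 is to the right of si-NC for the neutrophil genes, Lipg and Top2a, and to its left from Ccl5 down.

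Genes of mitosis and of DNA replication were on the higher side. All 50 measured mitosis genes were higher in si-Lnc-Dpf3 Med, with a median log2 ratio of 0.43 and a range from 0.05 to 0.67. Kif15, a spindle kinesin, was the only one past 1.5-fold, at 10.3 FPKM with si-Lnc-Dpf3 and 6.13 FPKM with si-NC (0.67). Top2a, which untangles DNA before chromosomes separate, had 56.6 FPKM with si-Lnc-Dpf3 and 38.2 FPKM with si-NC (0.55). Ccnb2, for cyclin B2, had 24.3 FPKM with si-Lnc-Dpf3 and 17.1 FPKM with si-NC (0.49). In the CCR7L pair these 3 genes were higher as well, at 0.25, 0.30 and 0.44. At the low end of the list stood Pttg1, for securin, at 96.1 FPKM with si-Lnc-Dpf3 and 92.8 FPKM with si-NC (0.05). The kinetochore gene Spc24 was next to it, at 13.5 FPKM with si-Lnc-Dpf3 and 13.01 FPKM with si-NC (0.05).

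Of 42 genes of DNA replication and nucleotide synthesis, 41 were higher and 1, Rfc3, was lower, with a median of 0.27. Pola1, the catalytic subunit of DNA polymerase alpha, had 6.18 FPKM with si-Lnc-Dpf3 and 3.82 FPKM with si-NC (0.57). Cdc45, a component of the replicative helicase, had 18.4 FPKM with si-Lnc-Dpf3 and 12.3 FPKM with si-NC (0.54). Mcm4, another helicase subunit, had 25.7 FPKM with si-Lnc-Dpf3 and 18.4 FPKM with si-NC (0.46). Myb and Myc, growth regulators in the list of progenitor factors counted above, had positive ratios. Myb had 11.5 FPKM with si-Lnc-Dpf3 and 8.58 FPKM with si-NC (0.39). Myc had 39.6 FPKM with si-Lnc-Dpf3 and 28.5 FPKM with si-NC (0.46). Of 67 histone genes in the table only 11 were measured, and 20 were at 0 FPKM in both Med libraries. Of the 11, 2 were higher and 9 lower in si-Lnc-Dpf3 Med, with a median of -0.18. Their median in the CCR7L pair was 0.04, and with no filter the Med median over all 67 was 0.00. What the few measured histone genes say of replication was not tested. Neutrophil precursors divide, and the part of the neutrophil lists in the values of the mitosis and replication lists was not tested. In the CCR7L pair the medians were 0.29 for mitosis and 0.19 for replication, with 50 of 50 and 41 of 42 members higher, where 52.4% of all genes were higher and 47.1% lower in that pair.

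Cholesterol synthesis and uptake genes were higher in 22 of 24, with a median of 0.19 in the Med pair and 0.10 in the CCR7L pair, and none passed 1.5-fold. Hsd17b7, a late enzyme of the pathway, had 10.9 FPKM with si-Lnc-Dpf3 and 7.48 FPKM with si-NC (0.49). Sqle, for squalene epoxidase, had 31.1 FPKM with si-Lnc-Dpf3 and 23.5 FPKM with si-NC (0.39).

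On the lower side, a few interferon-stimulated genes of the antiviral response had some of the lowest ratios, although only 4 of the 49 in the list were past 1.5-fold and its median of -0.24 was nearer to 0 than those of cytokines and chemokines, -0.33, and of maturation genes, -0.28. Ifit1bl1 (chromosome 19, 34592888 to 34662981), of the IFIT family of RNA-binding proteins, stood at 27.1 FPKM in si-Lnc-Dpf3 Med and 64.00 FPKM in si-NC Med, and at 28.7 FPKM in si-Lnc-Dpf3 CCR7L and 62.7 FPKM in si-NC CCR7L. Both si-Lnc-Dpf3 libraries were below both si-NC libraries, with log2 ratios of -1.21 and -1.10. Ifi205 (chromosome 1, 174011998 to 174031755), of the interferon-inducible PYHIN family, stood at 54.9 FPKM in si-Lnc-Dpf3 Med and 109 FPKM in si-NC Med, and at 67.2 FPKM in si-Lnc-Dpf3 CCR7L and 126 FPKM in si-NC CCR7L. Its ratios were -0.98 and -0.89, with the libraries in the same order. Ms4a4c (chromosome 19, 11404717 to 11427246), a tetraspan membrane protein gene, had 33.6 FPKM with si-Lnc-Dpf3 and 66.6 FPKM with si-NC (-0.97). Phf11d was the last member past 1.5-fold, at 10.1 FPKM with si-Lnc-Dpf3 and 17.3 FPKM with si-NC (-0.73). Apol9a, an interferon-induced apolipoprotein L gene that was not in the list, had 7.12 FPKM with si-Lnc-Dpf3 and 14.96 FPKM with si-NC (-0.97). Transcripts of the leading members and of Apol9a are partly shared with relatives. The share of 31-base words also found in other genes was 19.3% for Ifit1bl1, 22.1% for Ifi205, 17.1% for Ms4a4c and 20.2% for Apol9a.

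Across the antiviral list, 43 of 49 members were lower in si-Lnc-Dpf3 Med and 6 were higher, with a median of -0.24, and in the CCR7L pair 45 of 49 were lower with a median of -0.20. Most differences were modest. Cxcl10, a chemokine gene induced by interferons, had 201 FPKM with si-Lnc-Dpf3 and 299 FPKM with si-NC (-0.57). Rsad2, for viperin, had 194 FPKM with si-Lnc-Dpf3 and 281 FPKM with si-NC (-0.53). Ifit3 had 134 FPKM with si-Lnc-Dpf3 and 183 FPKM with si-NC (-0.44). Sensors and signalling members were mixed. Irf7, a transcription factor of interferon induction, had 379.5 FPKM with si-Lnc-Dpf3 and 462 FPKM with si-NC (-0.28). Ddx58, for the RNA sensor RIG-I, had 69.02 FPKM with si-Lnc-Dpf3 and 64.6 FPKM with si-NC (0.09). Ifih1, for the sensor MDA5, had 46.5 FPKM with si-Lnc-Dpf3 and 49.3 FPKM with si-NC (-0.08). Irf9, a transcription factor downstream of the interferon receptor, had 57.5 FPKM with si-Lnc-Dpf3 and 60.1 FPKM with si-NC (-0.06).

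Genes of RNA sensing and of the RNA silencing machinery, which handles siRNAs, were mixed, with 14 of 23 higher and a median of 0.04. Ago2, the slicing Argonaute, had 13.9 FPKM with si-Lnc-Dpf3 and 9.46 FPKM with si-NC (0.51), and its ratio in the CCR7L pair was -0.11. Tlr3, a receptor for double-stranded RNA, had 4.02 FPKM with si-Lnc-Dpf3 and 5.54 FPKM with si-NC (-0.38). Dicer1, which cuts small RNA precursors, had 8.85 FPKM with si-Lnc-Dpf3 and 7.52 FPKM with si-NC (0.21).

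Inflammatory cytokines and chemokines were lower in 32 of 35, with a median of -0.33 and 5 members at least 1.5-fold lower. Ccl5, which attracts T cells and monocytes, was among the most abundant transcripts and stood at 2493 FPKM in si-Lnc-Dpf3 Med and 4019 FPKM in si-NC Med, and at 2283 FPKM in si-Lnc-Dpf3 CCR7L and 3042 FPKM in si-NC CCR7L. The log2 ratio was -0.69 in the Med pair and -0.41 in the CCR7L pair, and si-NC Med stood highest of the 4 libraries. Il1f6, an IL-36 cytokine gene, had 4.33 FPKM with si-Lnc-Dpf3 and 9.72 FPKM with si-NC (-1.01). Ccl7, a monocyte chemokine gene, had 56.9 FPKM with si-Lnc-Dpf3 and 94.3 FPKM with si-NC (-0.72). Ccl17, a chemokine gene of mature dendritic cells that attracts T cells, had 808 FPKM with si-Lnc-Dpf3 and 1257 FPKM with si-NC (-0.64).

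Cytokines with which mature dendritic cells instruct T cells were among those lower. Il12a, the p35 subunit of IL-12, was past 1.5-fold, at 15.97 FPKM with si-Lnc-Dpf3 and 26.7 FPKM with si-NC (-0.70). Il1b had 735 FPKM with si-Lnc-Dpf3 and 1029.7 FPKM with si-NC (-0.49). Il6 had 70.5 FPKM with si-Lnc-Dpf3 and 95.2 FPKM with si-NC (-0.43). The smallest of these differences was in Tnf, at 131 FPKM with si-Lnc-Dpf3 and 152 FPKM with si-NC (-0.21). Positive ratios were found for 3 members, Il10 (0.30), Cxcl5 (0.13) and Il1f9 (0.05). Il10, an inhibitory cytokine gene, was near 1 FPKM, at 1.21 FPKM with si-Lnc-Dpf3 and 0.79 FPKM with si-NC (0.30). In the CCR7L pair 32 of the 35 were again lower, with a median of -0.19.

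Acute phase and microbial defence genes held some of the largest differences, with 4 of 15 members at least 1.5-fold lower, although the list's median was -0.11. Saa3, an acute phase apolipoprotein of macrophages, stood at 1059 FPKM in si-Lnc-Dpf3 Med and 1982 FPKM in si-NC Med, and at 1261 FPKM in si-Lnc-Dpf3 CCR7L and 1927 FPKM in si-NC CCR7L. Both si-Lnc-Dpf3 libraries were the lower ones, with log2 ratios of -0.90 and -0.61. Nos2, the inducible nitric oxide synthase, had 36.1 FPKM with si-Lnc-Dpf3 and 59.5 FPKM with si-NC (-0.71). Orm1, for orosomucoid, had 5.29 FPKM with si-Lnc-Dpf3 and 11.97 FPKM with si-NC (-1.04). Hamp, for the iron hormone hepcidin, had 3.74 FPKM with si-Lnc-Dpf3 and 9.86 FPKM with si-NC (-1.20). Other members of the list were on the higher side. Lbp, for the LPS-binding protein, had 9.53 FPKM with si-Lnc-Dpf3 and 6.51 FPKM with si-NC (0.49). The complement gene C3 had 326 FPKM with si-Lnc-Dpf3 and 292 FPKM with si-NC (0.16).

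Of 21 NF-κB subunits and feedback regulators, 19 were lower, with a median of -0.18 in the Med pair and -0.07 in the CCR7L pair. Socs3, an inhibitor of cytokine receptors, had 74.8 FPKM with si-Lnc-Dpf3 and 106 FPKM with si-NC (-0.50). Traf1, an adaptor of TNF receptors, had 179.6 FPKM with si-Lnc-Dpf3 and 234 FPKM with si-NC (-0.38). Subunit genes themselves were closer to level or on the other side. Nfkb1, for the subunit p50, had 119.6 FPKM with si-Lnc-Dpf3 and 125 FPKM with si-NC (-0.07). Rel, for the subunit c-Rel, had 33.5 FPKM with si-Lnc-Dpf3 and 29.2 FPKM with si-NC (0.20).

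Genes of dendritic cell maturation and costimulation were lower in 26 of 27, with a median of -0.28, and the CCR7L pair gave 24 of 27 and -0.26. Cd40, which receives help from T cells, had 50.9 FPKM with si-Lnc-Dpf3 and 73.04 FPKM with si-NC (-0.51). Cd86, a ligand of CD28, had 109 FPKM with si-Lnc-Dpf3 and 133 FPKM with si-NC (-0.28). Cd274, for PD-L1, had 194 FPKM with si-Lnc-Dpf3 and 229 FPKM with si-NC (-0.24). The receptor of the ligands left out of this comparison was lower to a similar degree, since Ccr7 had 685 FPKM with si-Lnc-Dpf3 and 808 FPKM with si-NC (-0.24). Past 1.5-fold were Ccl17, given above, and Ido1, a tryptophan-degrading enzyme, at 4.05 FPKM with si-Lnc-Dpf3 and 7.51 FPKM with si-NC (-0.75). The 1 member with a positive ratio was Tnfrsf4, for OX40, at 7.90 FPKM with si-Lnc-Dpf3 and 7.19 FPKM with si-NC (0.12).

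Dendritic cell markers as a list were lower in 17 of 17, with a median of -0.26 in the Med pair and -0.11 in the CCR7L pair. Scaled to equal totals, 2 of the 17 were higher, with a Med median of -0.21. The list includes Ccr7 and Cd86, named above with the maturation genes, and the class II genes Cd74, H2-Aa, H2-Ab1 and Ciita. Its counts are thus not independent of those of the maturation and class II lists. Itgax, for CD11c, had 24.7 FPKM with si-Lnc-Dpf3 and 33.3 FPKM with si-NC (-0.42). Irf8, a transcription factor of dendritic cells and monocytes, had 182 FPKM with si-Lnc-Dpf3 and 227 FPKM with si-NC (-0.32). Batf3, which acts with it, had 67.1 FPKM with si-Lnc-Dpf3 and 84.2 FPKM with si-NC (-0.32). Lineage genes at lower levels were close to level. Zbtb46, a transcription factor of conventional dendritic cells, had 13.4 FPKM with si-Lnc-Dpf3 and 13.9 FPKM with si-NC (-0.05). Flt3, the receptor of their growth factor, had 11.9 FPKM with si-Lnc-Dpf3 and 12.5 FPKM with si-NC (-0.06). Lists of other cell types were lower too: macrophage genes in 13 of 17 (median -0.18), mast cell and basophil genes in 9 of 10 (-0.24) and megakaryocyte genes in 6 of 6 (-0.22). The 3 NK cell genes that passed the filter were lower (-0.56), and with no filter the median over all 7 was -0.01. Eosinophil genes were higher in 7 of 9 (0.14), with a median of -0.03 in the CCR7L pair. The part of cell composition in the maturation, cytokine and interferon lists was not tested.

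Antigen presentation genes, some of them counted above as dendritic cell markers, were lower as well. MHC class II genes were lower in 13 of 15 (median -0.26) and MHC class I processing genes in 20 of 22 (median -0.27), and the CCR7L pair gave -0.09 and -0.13. H2-Ab1, a class II chain, had 206 FPKM with si-Lnc-Dpf3 and 269 FPKM with si-NC (-0.39). Ctss, for cathepsin S, which degrades the invariant chain, had 581 FPKM with si-Lnc-Dpf3 and 792 FPKM with si-NC (-0.45). H2-Q7, a nonclassical class I gene, had 113 FPKM with si-Lnc-Dpf3 and 168 FPKM with si-NC (-0.57). The transactivator genes that drive each class were close to level. Ciita, of class II, had 9.34 FPKM with si-Lnc-Dpf3 and 9.65 FPKM with si-NC (-0.04). Nlrc5, of class I, had 25.04 FPKM with si-Lnc-Dpf3 and 25.5 FPKM with si-NC (-0.02).

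**Figure D3:**
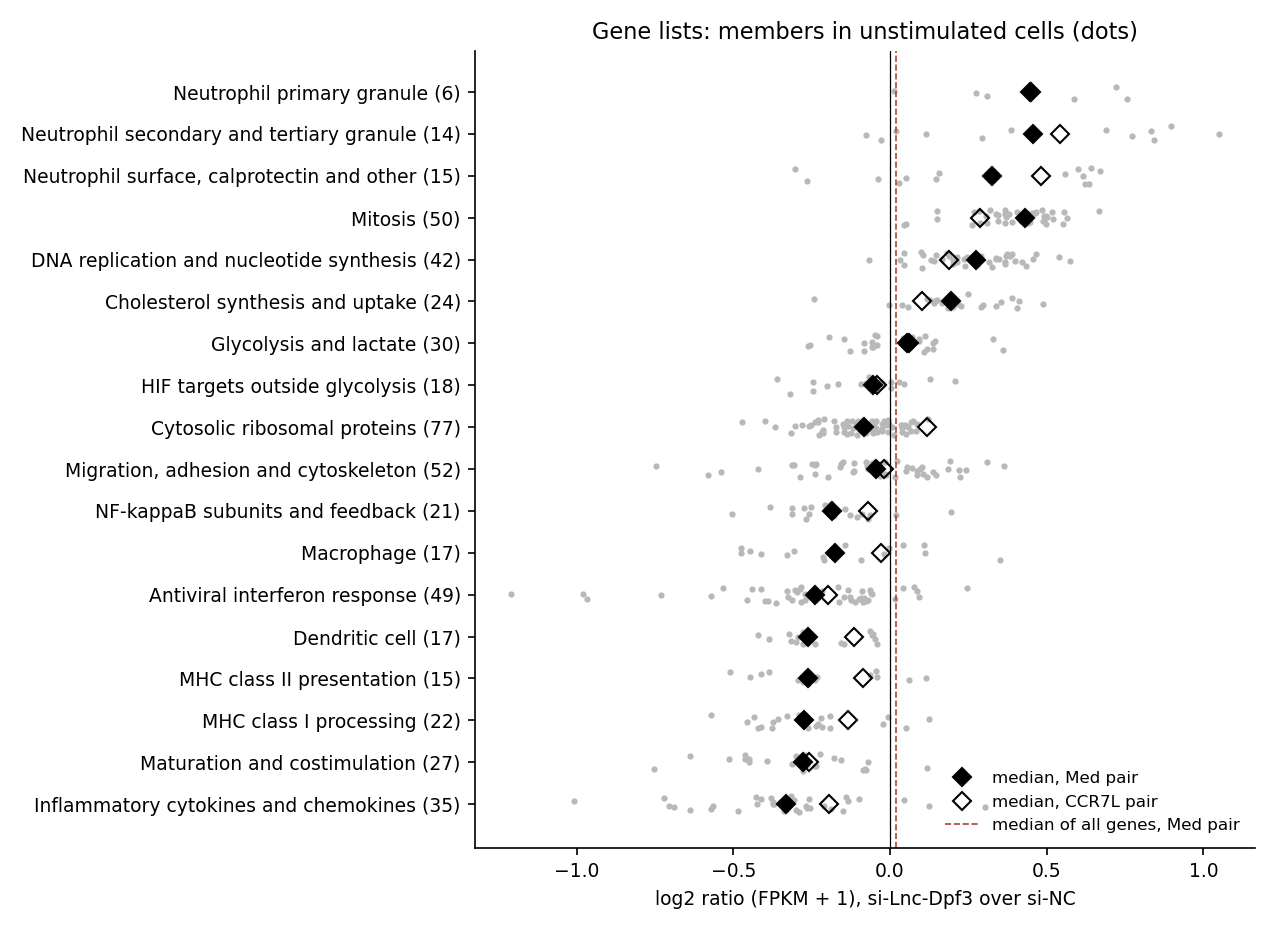
Log2 ratios si-Lnc-Dpf3 Med over si-NC Med of the measured members of 18 gene lists (grey dots, number of members in brackets), with filled diamonds for list medians in the Med pair, open diamonds for medians in the CCR7L pair and a dashed line for the median of all genes, 0.02. Neutrophil and mitosis lists lie to the right, glycolysis near 0, and maturation and cytokine lists to the left.

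Glycolysis, the pathway named in the title of the series, was nearly level without CCR7 ligands. Of 30 glycolysis and lactate genes, 17 were higher in si-Lnc-Dpf3 Med and 13 lower, with a median of 0.05, a range from -0.26 to 0.36, and none past 1.5-fold. The entry steps showed no common direction. Slc2a1, for the glucose transporter GLUT1, had 61.1 FPKM with si-Lnc-Dpf3 and 62.9 FPKM with si-NC (-0.04). Hk2, for hexokinase 2, had 25.9 FPKM with si-Lnc-Dpf3 and 24.6 FPKM with si-NC (0.07). Pfkfb3, whose product activates phosphofructokinase, had 91.3 FPKM with si-Lnc-Dpf3 and 101 FPKM with si-NC (-0.15). Several enzymes of the lower part of the pathway were abundant and within a narrow range. Tpi1, for triosephosphate isomerase, had 211 FPKM with si-Lnc-Dpf3 and 230.3 FPKM with si-NC (-0.13). Pgk1, for phosphoglycerate kinase, had 352 FPKM with si-Lnc-Dpf3 and 342 FPKM with si-NC (0.04). Eno1, for alpha-enolase, had 722 FPKM with si-Lnc-Dpf3 and 678 FPKM with si-NC (0.09). Ldha, for the lactate dehydrogenase subunit that favours lactate, was also close to level, at 444 FPKM with si-Lnc-Dpf3 and 462 FPKM with si-NC (-0.06). The enolase genes Eno3, at 12.5 FPKM with si-Lnc-Dpf3 and 13.02 FPKM with si-NC (-0.05), and Eno2, at 2.48 FPKM with si-Lnc-Dpf3 and 2.58 FPKM with si-NC (-0.04), were far less abundant than Eno1. The widest ratios in the list were in genes of low level, Slc2a3, for GLUT3, at 8.64 FPKM with si-Lnc-Dpf3 and 6.51 FPKM with si-NC (0.36), and Ldhb, at 1.02 FPKM with si-Lnc-Dpf3 and 1.42 FPKM with si-NC (-0.26). In the CCR7L pair, which shares no library with the Med pair, the list's median was 0.06, with 20 of 30 higher.

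HIF1α is the oxygen-regulated transcription factor that drives many glycolysis genes, and prolyl hydroxylases mark it for destruction. Hif1a stood at 73.99 FPKM in si-Lnc-Dpf3 Med and 70.95 FPKM in si-NC Med, and at 67.4 FPKM in si-Lnc-Dpf3 CCR7L and 71.9 FPKM in si-NC CCR7L, with log2 ratios of 0.06 and -0.09. Its partner Arnt had 15.4 FPKM with si-Lnc-Dpf3 and 14.7 FPKM with si-NC (0.07), and the hydroxylase gene Egln3 had 13.1 FPKM with si-Lnc-Dpf3 and 11.7 FPKM with si-NC (0.15). The 7 measured factors and oxygen sensors all lay between -0.07 and 0.15. Of 18 HIF targets outside glycolysis, 6 were higher and 12 lower, with a median of -0.05. Vegfa, an angiogenic factor gene, had 32.4 FPKM with si-Lnc-Dpf3 and 38.6 FPKM with si-NC (-0.25). Hilpda, a lipid droplet gene, had 30.4 FPKM with si-Lnc-Dpf3 and 39.3 FPKM with si-NC (-0.36). Ero1l, an oxidase of the endoplasmic reticulum, had 61.5 FPKM with si-Lnc-Dpf3 and 53.2 FPKM with si-NC (0.21). ACGTG, the core of the hypoxia response element, searched on both strands, occurred in 16 of 29 glycolysis promoters, 55.2%, and 13 of 15 promoters of the other targets, 86.7%, against 29.9% of all compared genes with a promoter entry.

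Migration, adhesion and cytoskeleton genes were split, with 20 of 52 higher, 32 lower and a median of -0.05, which turned to 0.01 when the libraries were scaled to equal totals. Timp1, an inhibitor of matrix proteases, was the 1 member past 1.5-fold, at 6.73 FPKM with si-Lnc-Dpf3 and 11.97 FPKM with si-NC (-0.75). Mmp12, for macrophage elastase, had 202 FPKM with si-Lnc-Dpf3 and 294 FPKM with si-NC (-0.54). The highest ratios in the list were those of Rock2 and Ccr2. Ccr2, a monocyte chemokine receptor gene, had 20.8 FPKM with si-Lnc-Dpf3 and 16.6 FPKM with si-NC (0.31). Rock2, a kinase of actomyosin contraction, had 16.7 FPKM with si-Lnc-Dpf3 and 12.7 FPKM with si-NC (0.37).

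The protein-coding gene Dpf3 lies on chromosome 12, from 83213751 to 83487736 in GRCm38. It stood at 0.89 FPKM in si-Lnc-Dpf3 Med and 0.93 FPKM in si-NC Med, and at 1.35 FPKM in si-Lnc-Dpf3 CCR7L and 2.03 FPKM in si-NC CCR7L. Its log2 ratio was -0.03 in the Med pair, where both values were under 1 FPKM, and -0.37 in the CCR7L pair. Of 29 genes within 1000000 bases, Dpf3 included, 18 were measured, and their ratios ran from -0.19 to 0.47 with a median of 0.04. The highest was that of Acot1, an acyl-CoA thioesterase gene, at 2.89 FPKM with si-Lnc-Dpf3 and 1.80 FPKM with si-NC (0.47).

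Other genes with the highest and lowest ratios were at low levels. LOC100862446, a predicted gene, had the highest ratio of all, from 11.6 FPKM with si-Lnc-Dpf3 and 3.45 FPKM with si-NC, and a log2 ratio of -0.36 in the CCR7L pair. It shares 74.1% of its 31-base words with other genes, chiefly the ferritin light chain gene Ftl1, so its values are uncertain. The predicted gene Gm41035 was next, at 3.17 FPKM with si-Lnc-Dpf3 and 0.50 FPKM with si-NC (1.48). Tram2 had ratios of 0.84 in the Med pair and -0.18 in the CCR7L pair, and 6430548M08Rik and Lmo1, a LIM domain gene, had 0.83 and 0.80 in the Med pair. Lower were Gstt4, a glutathione S-transferase gene (-1.06), the neuropeptide gene Npy (-0.94), the nucleoside transporter gene Slc28a2 (-0.90), the glutamate transporter gene Slc1a2 (-0.86), the chemokine gene Xcl1 (-0.86) and the mast cell protease gene Mcpt1 (-0.83). None of these lower genes was above 8 FPKM in si-Lnc-Dpf3 Med or above 15 FPKM in si-NC Med, and Slc28a2 shares 46.3% of its words with other genes.

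The most abundant transcripts differed in both directions. Fth1, the ferritin heavy chain gene, had 7135 FPKM with si-Lnc-Dpf3 and 9511 FPKM with si-NC (-0.41). Cst3, for cystatin C, had 2302 FPKM with si-Lnc-Dpf3 and 3123 FPKM with si-NC (-0.44). Chil3, a chitinase-like protein of neutrophil precursors and macrophages, had 3619 FPKM with si-Lnc-Dpf3 and 2635 FPKM with si-NC (0.46), with 41.5% of its 31-base words shared with other genes. The metabolic and cytoskeletal genes often used as a standard lay closer to 0. Gapdh had 2264 FPKM with si-Lnc-Dpf3 and 2171 FPKM with si-NC (0.06). Actb had 3187 FPKM with si-Lnc-Dpf3 and 3441 FPKM with si-NC (-0.11).

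The CCR7L pair, measured in libraries that are not in the Med pair, gave ratios of the same sign for most of the leading genes. Of the 48 genes at least 1.5-fold higher in si-Lnc-Dpf3 Med, 45 were higher in si-Lnc-Dpf3 CCR7L and 14 were at least 1.5-fold higher there, which is 29.2% of the 48 and 41.2% of the 34 genes past that threshold in the CCR7L pair. Of the 65 lower genes, 57 were lower and 12 at least 1.5-fold lower, 18.5% of the 65 and 48% of the 25 in the CCR7L pair. Among all genes 0.308% and 0.226% passed 1.5-fold higher and lower in the CCR7L pair. Across the 11041 genes, which are not independent, the ratios of the pairs correlated at 0.44 (Pearson) and 0.37 (Spearman), and across the 6440 genes averaging at least 10 FPKM at 0.55 and 0.43. Whether cells of the same siRNA came from a common culture or transfection is not stated, so that a difference between cultures cannot be told apart from one made by the siRNA.

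**Figure D4:**
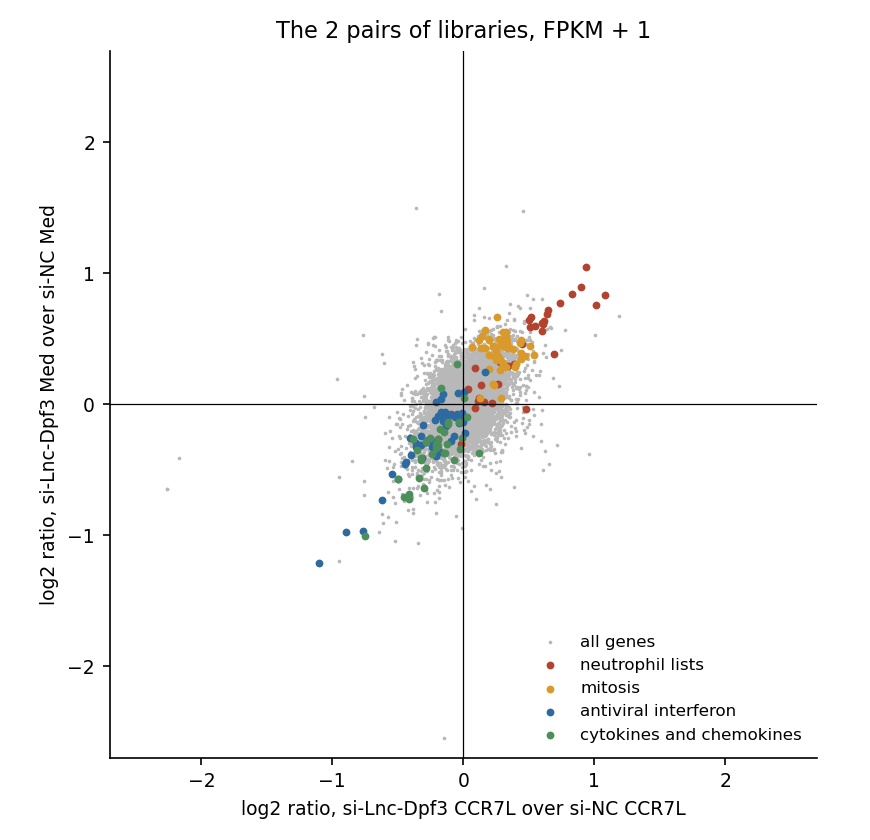
Log2 ratio in the Med pair (vertical) against log2 ratio in the CCR7L pair (horizontal), 1 point per gene. Neutrophil and mitosis genes lie mostly in the upper right and antiviral interferon and cytokine genes mostly in the lower left, with a Pearson correlation of 0.44 over 11041 genes.

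Some genes differed between the pairs. Clec4b2, a C-type lectin gene, stood at 14.8 FPKM in si-Lnc-Dpf3 Med and 7.52 FPKM in si-NC Med, and at 10.3 FPKM in si-Lnc-Dpf3 CCR7L and 9.15 FPKM in si-NC CCR7L, log2 ratios of 0.89 and 0.16. Dcstamp, which is needed for fusion of osteoclasts and macrophages, stood at 9.30 FPKM in si-Lnc-Dpf3 Med and 14.9 FPKM in si-NC Med, and at 11.3 FPKM in si-Lnc-Dpf3 CCR7L and 10.6 FPKM in si-NC CCR7L, ratios of -0.62 and 0.08. In Dcstamp it was si-NC Med that lay above the other 3 libraries, and in Clec4b2 si-Lnc-Dpf3 Med. Rnaset2b, a ribonuclease gene with 63.1% of its 31-base words shared, had ratios of -0.66 and 0.06. Hist1h2ao shares 93.8% of its words with Hist1h2ap, and its ratios of 1.06 and 0.32 are uncertain for that reason. Zbed5 had the lowest ratio of all, -2.55, from 0.30 FPKM in si-Lnc-Dpf3 Med and 6.62 FPKM in si-NC Med. That value rests on si-NC Med alone, since Zbed5 was at 0.15 FPKM in si-Lnc-Dpf3 CCR7L and 0.27 FPKM in si-NC CCR7L.

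The ratios of the Med pair moved with transcript length. In 5 bins of 2169 to 2177 genes by length, the median log2 ratio was -0.08 in the shortest bin, with a median length of 1170 bases, and then -0.01, 0.02, 0.05 and 0.11 in the longest, at 5926 bases. The CCR7L pair ran the other way and less steeply, at 0.03 in the shortest bin and -0.02 in the longest. Spearman's rho with length was 0.36 in the Med pair and -0.12 in the CCR7L pair, and with GC content -0.22 and 0.27, over 10863 genes as a description.

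**Figure D5:**
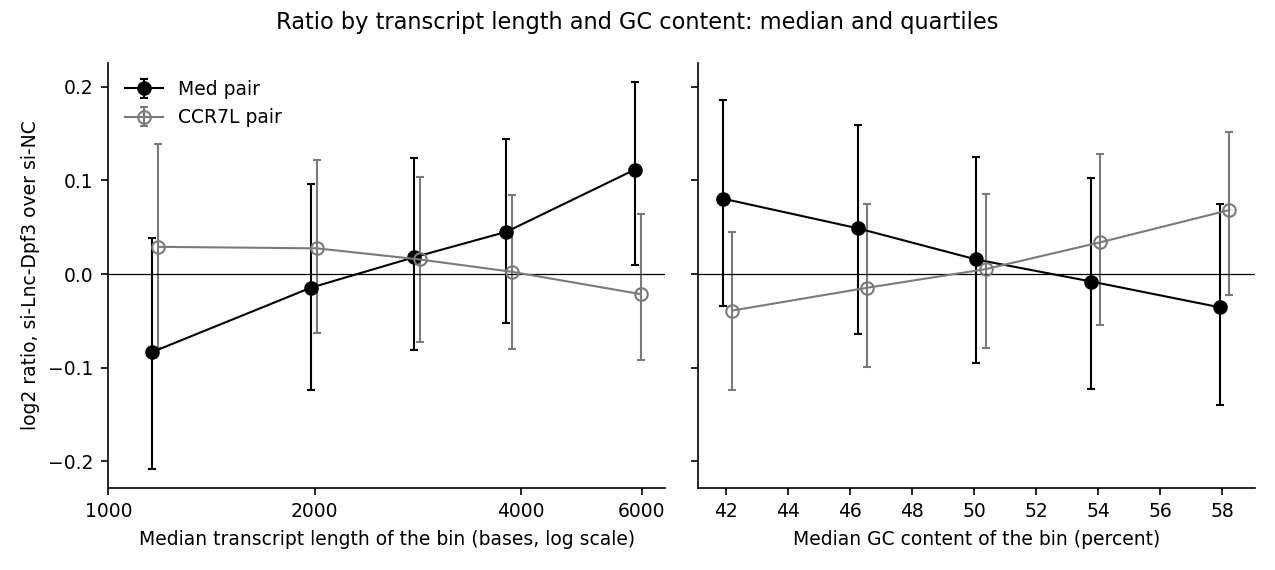
Median log2 ratio si-Lnc-Dpf3 over si-NC, with lines to the quartiles, in 5 bins of genes by transcript length (left, log axis) and GC content (right), filled for the Med pair and open for the CCR7L pair, drawn slightly apart sideways. The Med pair climbs with length, between -0.08 and 0.11, and the CCR7L pair declines, between 0.03 and -0.02.

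With a quadratic surface of length and GC content subtracted, the medians were 0.50 for the neutrophil lists, 0.41 for mitosis, -0.19 for antiviral interferon genes, -0.24 for cytokines and chemokines, -0.26 for maturation and -0.18 for dendritic cell markers. These lists kept the sign of their median, while 6 lists did not. Cytosolic ribosomal protein genes were lower in 62 of 77 in the Med pair with a median of -0.08, which was 0.04 with the trend subtracted, and were higher in 64 of 77 in the CCR7L pair. Nuclear genes of the respiratory chain had a median of -0.07, which was 0.04 with it subtracted, and mitochondrial ribosomal protein genes -0.05, which was 0.02. The others were vacuolar ATPase genes, -0.06 and then 0.00, proteasome genes, -0.01 and then 0.06, and C-type lectin genes, -0.04 and then 0.02. Scaled to equal totals, the median of the mitochondrial ribosomal list was 0.00 and that of the cytosolic one -0.03.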

How the data were processed

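Per the labels' protocols, 4 RNA libraries were read on a BGISEQ-500 sequencer. FPKM values for 18021 genes were deposited by the authors in 1 table, per the file headers, and per the submitters' processing notes Bowtie2 and RSEM were used with GRCm38, in versions not given in the sources used here. Columns were matched to groups through the abbreviations in their names, and 0 columns were left unmapped. Log2 ratios were taken of FPKM + 1 (pseudocount 1) over genes averaging 1 FPKM or more, without a test, since each group has 1 library, and genes at least 1.5-fold and 2-fold apart were counted. In 26 entries a symbol turned into a date was restored through its Entrez number, 17892 of which matched a RefSeq table of GRCm38.p6 that gave coordinates. Transcript lengths and GC content came from GENCODE for 10863 of the 11041 genes, and FPKM shared between near-identical copies was gauged by 31-base words. Depth was estimated from the steps of FPKM values in 102, 93, 106 and 101 low genes (si-Lnc-Dpf3 Med, si-NC Med, si-Lnc-Dpf3 CCR7L, si-NC CCR7L). It left 60.8%, 60.2%, 59.4% and 66.3% of values no more than 0.1 from a whole read, so read counts were not recovered. By chance 20% would be at a depth fixed beforehand, whereas the depth kept was the one with the highest share, so 20% is too low a yardstick.

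The 42 gene lists (15 of cell type markers, 27 of processes) and the members were chosen with earlier results of these data known. Named genes were drawn from the 15 highest and 15 lowest ratios, the 10 each way at a mean of at least 10 FPKM, in each list up to 4 members with the largest ratios and any past 1.5-fold, the glycolysis and HIF lists, 5 genes each way differing most between the pairs, and Dpf3 with its neighbours. Further list members, named to show the spread or a known role, were chosen after their values were seen. Alternatives were pseudocounts of 0.1 and 5, other filters, scaling to equal totals or by the median ratio, and removal of a length and GC trend. Ratios were computed with Python 3.11.15, numpy 2.4.6, pandas 2.3.3 and scipy 1.17.1, and tested on simulated data.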

Additional observations from a re-analysis of the deposited data

Results flagged for a closer look

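Results are listed here where the Med pair and the CCR7L pair had ratios of opposite sign; with 1 library a group, none of these differences was tested. List medians of opposite sign, each at least 0.05 from 0, were found for cytosolic ribosomal protein genes (-0.08 in the Med pair, 0.12 in the CCR7L pair), mitochondrial ribosomal protein genes (-0.05 and 0.06) and nuclear respiratory chain genes (-0.07 and 0.05). They were also found for erythroid genes (-0.21 and 0.11, 3 genes), stromal genes (-0.17 and 0.16, 2 genes) and T cell genes (-0.07 and 0.10, 4 genes). Of the 5 genes each way that averaged at least 10 FPKM and differed most between the pairs, those of opposite sign with both ratios at least 0.1 from 0 were Rpl37, a ribosomal protein gene, with log2 ratios of -0.47 and 0.15, Cpne8, a calcium-binding copine gene, with -0.37 and 0.24, and the predicted genes LOC102638183, with 0.38 and -0.62, and LOC108167440, with 0.71 and -0.17. Rpl37 shares 16.6% of its 31-base words with other genes, chiefly the retrocopy Rpl37rt.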

How the results depend on the processing

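Counts of genes past a fold depended on the pseudocount. With 0.1, genes at least 1.5-fold numbered 126 higher and 138 lower, and at least 2-fold 9 and 18. With 5, they numbered 19 and 23, and 1 and 2. A mean of at least 5 FPKM left 39 genes at least 1.5-fold lower, and scaling to equal totals, which moved the median of all genes by 0.05, gave 77 at least 1.5-fold higher. With the length and GC trend removed, 42 genes were at least 1.5-fold lower, and 2 and 3 were at least 2-fold higher and lower. The cause was not tested beyond what each alternative changes. Among the genes with the highest and lowest ratios none changed sign, 231 values stayed on the same side of 1.5-fold, and 12, all at a pseudocount of 5, were under it. Of the list medians under the alternatives, 287 came with a share of higher members inside the 95% binomial interval of the reported share. The other 18 did not, among them values of the set of all genes. That interval treats genes as independent, which they are not, and is wide for short lists. A median could change sign inside it, as for C-type lectin genes, -0.04 and then 0.02 with the trend removed. No paired analysis was possible because the labels give no replicate numbers and each group has 1 library. A fit over all 4 libraries with the siRNA and the ligands as terms, which would leave 1 residual degree of freedom and average the siRNA's ratio over both conditions, was not run. Depth limits genes near 1 FPKM, about 55 reads, and these figures cover counting error only.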

Other observations

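Genes of osteoclasts and of macrophage fusion were mostly lower in si-Lnc-Dpf3 Med. The list of 25 such genes was written after some of their values had been seen, so its counts are a description. Of 21 measured, 17 were lower and 4 higher, with a median log2 ratio of -0.18 in the Med pair and -0.10 in the CCR7L pair, where 13 were lower. Acp5, for tartrate-resistant acid phosphatase, stood at 40.9 FPKM in si-Lnc-Dpf3 Med and 64.8 FPKM in si-NC Med (-0.65), Ctsk, for the bone collagenase cathepsin K, at 7.79 FPKM with si-Lnc-Dpf3 and 12.7 FPKM with si-NC (-0.64), and the fusion gene Ocstamp at 1.63 FPKM with si-Lnc-Dpf3 and 2.97 FPKM with si-NC (-0.59). Together with Dcstamp these are the 4 members at least 1.5-fold lower. Among all genes 45.3% were lower and 0.589% at least 1.5-fold lower. Those shares are no yardstick here, since the list was written with values in view. Gpnmb, Csf1r and Trem2 were also counted with the macrophage genes. Nfatc1, the transcription factor of osteoclast development, was at 12.5 FPKM with si-Lnc-Dpf3 and 11.4 FPKM with si-NC (0.12). Tnfrsf11a, for RANK, the receptor that induces it, was at 14.4 FPKM with si-Lnc-Dpf3 and 14.8 FPKM with si-NC (-0.04).

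Outside the 42 gene lists of the report stood 76 genes at least 1.5-fold apart, the 4 osteoclast and fusion genes above among them. Some others at higher levels, picked after their values were seen, are given here. Ly6a, for the surface antigen Sca-1, had 213 FPKM in si-Lnc-Dpf3 Med and 349 FPKM in si-NC Med (-0.71), and Plet1, a surface protein gene of some dendritic cells, 59.1 FPKM with si-Lnc-Dpf3 and 95.7 FPKM with si-NC. Lipg, for endothelial lipase, was higher, at 53.4 FPKM with si-Lnc-Dpf3 and 30.2 FPKM with si-NC (0.80). Hsd11b1, which regenerates active glucocorticoid, had 37.3 FPKM with si-Lnc-Dpf3 and 23.4 FPKM with si-NC. Olfm4, a neutrophil granule gene that was in none of the lists, had 9.70 FPKM with si-Lnc-Dpf3 and 5.29 FPKM with si-NC (0.77).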
